A study of Mus musculus with 8 samples.

Results

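The mitosis genes are 36 genes listed by name that act in cell division, from the cyclins that start mitosis to the proteins that separate the daughter cells. Of the 36, 35 were measured, among 18192 genes named on the arrays in all. Ccnb1, the cyclin B1 gene, was not analysed here. Every probe set (a group of short probes against 1 transcript) whose platform symbol was a member was taken, 75 in all. Each gene is represented by its brightest probe set, and the other 40, from 23 genes, served as a check.

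RNA was measured in AML12 cells, an established mouse hepatocyte line derived from the liver of a mouse carrying a human TGF-alpha transgene, and in a derived line, called the v-erbA line here, into which v-erbA had been transfected. This is the viral oncoprotein related to the thyroid hormone receptor, and it acts as a repressor. Each line was left untreated or received 1 µM RA (retinoic acid), and was taken at 3 h or 24 h, with 1 Affymetrix array per combination. The 8 groups were therefore untreated AML12 cells at 3 h, untreated AML12 cells at 24 h, AML12 cells with RA for 3 h, AML12 cells with RA for 24 h, and the same 4 combinations of the v-erbA line. No combination was replicated. Times follow the sample titles, because 3 of the 4 samples titled 24 h carry descriptions that name 3 h. The labels name no vector control and no number of clones for the v-erbA line, so v-erbA and the making of that line cannot be told apart. The sources used here do not give the cell density or any change of medium between 3 h and 24 h.

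Cells enter mitosis when Cdk1, held by its A and B type cyclins, is switched on. The kinases Plk1 and Aurka build the spindle, the kinetochore proteins attach chromosomes to it, and the checkpoint holds the anaphase-promoting complex back until all are attached. Most of these genes are transcribed in G2 and M phase and are low in resting cells, so their RNA is a common measure of how many cells in a culture are dividing. In the adult liver hepatocytes rarely divide, whereas hepatocyte lines such as AML12 grow in culture.

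Many promoters of this group carry CCAAT boxes, which bind the factor NF-Y, and a cell cycle homology region, whose letters TTTGAA or TTCGAA bind the MuvB complexes with B-Myb and FoxM1. RefSeq promoter windows (assembly GRCm38.p6, 250 bases before to 50 after each annotated start) were found for 31 of the 35 measured members, with 33 starts. Aurkb, Ccna2, Kif20a and Tpx2 had no entry. The 3 sets of letters were searched on both strands, each on its own, with overlaps allowed. CCAAT lay in 27 of the 33 windows (81.8%), against 37.4% of all 32851 windows of the table. TTTGAA lay in 26 (78.8%), against 17.9%, and TTCGAA in 3 (9.09%), against 1.56%. Both CCAAT and TTTGAA lay in 24 windows (72.7%), against 6.95% of all windows and 4.79% of those of the genes tested. None of the 3 motifs lay in the windows of Birc5, Mad2l1, Nusap1 and Pttg1. Binding of these factors was not measured in this study, and a match of letters is a description of the window.

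The 120 bases before the annotated start are printed for 7 members, 5′ to 3′ on the gene's strand, with the letters of the 3 motifs, or of their reverse complements, in capitals. Cdk1, Cdc20, Ube2c, Kif11, Prc1 and Top2a show how CCAAT and TTTGAA sit near each other in members of 5 different roles, with Cdc20 and Ube2c both from anaphase. Kif2c is shown as a member with TTTGAA and no CCAAT in its window, which also held for Anln.
Cdk1: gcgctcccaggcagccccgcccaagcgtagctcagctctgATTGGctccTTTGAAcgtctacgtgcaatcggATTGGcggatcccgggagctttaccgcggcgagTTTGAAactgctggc
Cdc20: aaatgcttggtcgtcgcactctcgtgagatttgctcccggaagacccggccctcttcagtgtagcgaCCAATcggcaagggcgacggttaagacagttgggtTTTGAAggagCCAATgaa
Ube2c: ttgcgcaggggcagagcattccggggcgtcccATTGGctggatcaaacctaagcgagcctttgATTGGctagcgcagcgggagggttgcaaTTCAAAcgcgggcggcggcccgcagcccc
Kif11: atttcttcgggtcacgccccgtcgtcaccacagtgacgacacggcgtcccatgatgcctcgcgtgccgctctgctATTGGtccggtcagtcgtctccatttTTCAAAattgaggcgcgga
Prc1: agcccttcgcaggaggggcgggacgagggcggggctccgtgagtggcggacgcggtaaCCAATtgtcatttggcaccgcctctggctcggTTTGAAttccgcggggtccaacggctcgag
Top2a: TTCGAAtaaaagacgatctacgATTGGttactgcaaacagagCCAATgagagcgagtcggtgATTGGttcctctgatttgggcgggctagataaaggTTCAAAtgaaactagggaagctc
Kif2c: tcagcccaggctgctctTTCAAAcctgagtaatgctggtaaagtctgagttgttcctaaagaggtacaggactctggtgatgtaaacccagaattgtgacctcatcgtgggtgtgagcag
These stretches lie at chr10:69352913-69353032 (Cdk1, minus strand), chr4:118437344-118437463 (Cdc20, minus strand) and chr2:164769809-164769928 (Ube2c, plus strand). Kif11 lies at chr19:37376262-37376381 on the plus strand, Prc1 at chr7:80294356-80294475 on the plus strand (1 of 2 annotated starts), Top2a at chr11:99024190-99024309 on the minus strand and Kif2c at chr4:117178773-117178892 on the minus strand. The Cdk1 stretch holds 2 CCAAT and 2 TTTGAA matches, and the Top2a stretch holds 3 CCAAT, 1 TTTGAA and 1 TTCGAA match.

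The deposited signals ran from 0 to 12275 units on a linear scale, and array medians from 71.2 to 76.1. Genes above the pooled median, 73.5 units, on 2 or more arrays were tested, which held for 12015 genes and for all 35 measured members. Albumin, the main plasma protein made by hepatocytes, read 9364 to 11053 units over the 8 arrays, and all 13 measured hepatocyte markers of a list of 16 passed the filter. Tests were limma fits over the arrays, with Benjamini-Hochberg adjustment over all 12015 genes and a threshold of 0.05. Because no combination was replicated, the error in these fits is the departure of the arrays from the model, and p-values measure that departure and not the spread between cultures.

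The mitosis genes were highest at 3 h, lower at 24 h in every line and treatment, and lowest on the untreated 24 h AML12 array. Relative to the untreated 3 h AML12 array, the median member stood at 37.6% on the untreated 24 h AML12 array and at 76.9% with RA at 24 h (on the signal plus 19.9 units, as in the fits). In the v-erbA line it stood at 120% and 115% at 3 h, untreated and with RA, and at 63.0% and 67.9% at 24 h. The median of all genes tested stayed within 99.7% and 102% on all 8 arrays. The untreated 24 h AML12 array was the lowest of the 8 for 35 of 35 members, so this array is given separately beside each result. It was the lowest of the 4 arrays of 24 h for 32.7% of the genes tested. In RNA from whole cultures, fewer dividing cells and less of each transcript per cell cannot be told apart.

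**Figure D1:**
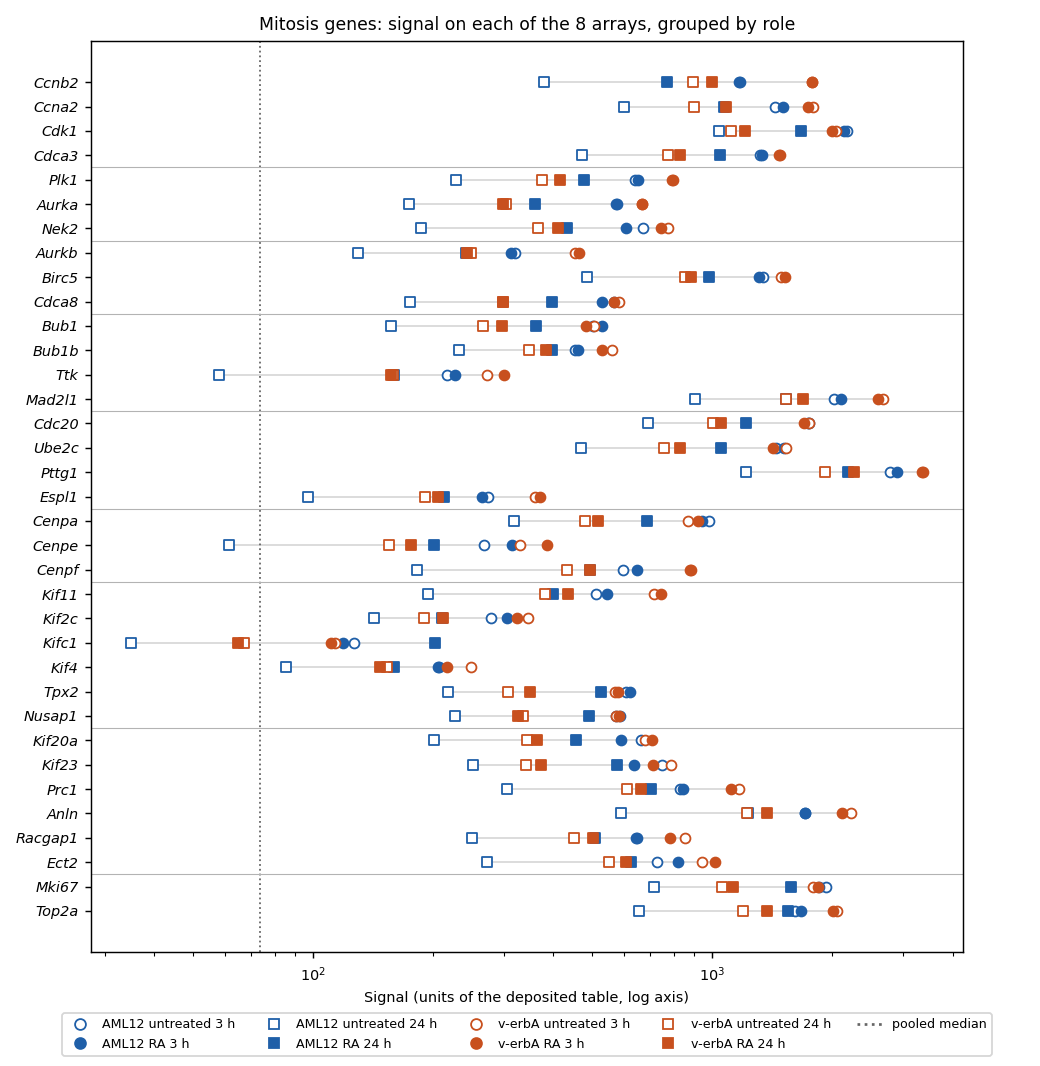
Signal of each of the 35 measured mitosis genes (rows, grouped by role between the grey lines) on the 8 arrays, on a log axis in units of the deposited table. Circles are 3 h and squares 24 h, open symbols untreated and filled symbols RA, blue AML12 cells and orange the v-erbA line, and the dotted line is the pooled median of 73.5 units. The open blue square is the leftmost symbol in all 35 rows, and in 34 rows, all but Kifc1, all squares lie left of all circles.

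Signals are given next by role. In each pair of values the untreated array comes first and the RA array second. Of the genes that drive entry into mitosis, Cdk1 (probe set 1448314_at), the kinase at the centre of entry, read 2172 and 2140.1 units at 3 h and 1040.1 and 1669 at 24 h in AML12 cells, and 2042 and 1991 at 3 h and 1113 and 1211 at 24 h in the v-erbA line. Ccna2 (probe set 1417911_at), cyclin A2, which activates Cdk1 before the B type cyclins do, read 1438 and 1499.7 units at 3 h and 602 and 1070.4 at 24 h in AML12 cells, and 1785 and 1738 at 3 h and 899 and 1083 at 24 h in the v-erbA line. In both genes the 4 arrays of 24 h lay below the 4 of 3 h without overlap, and the untreated AML12 array was the lowest of the 24 h arrays. Ccnb2, cyclin B2, read 1168 and 1173 units at 3 h and 378 and 771 at 24 h in AML12 cells, and 1773 and 1776 at 3 h and 895 and 996 at 24 h in the v-erbA line. Unlike Cdk1, Ccnb2 was higher in the v-erbA line than in AML12 cells in each of the 4 matched pairs of arrays. Cdca3, which helps degrade the Cdk1 inhibitor Wee1, followed the same order of times, from 471 to 1479 units.

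Among the mitotic kinases, Plk1 (probe set 1448191_at), which drives spindle assembly and exit, read 641 and 651 units at 3 h and 228 and 477 at 24 h in AML12 cells, and 795 and 797 at 3 h and 375 and 414 at 24 h in the v-erbA line. Nek2 (probe set 1437580_s_at), which separates the centrosomes, read 669.8 and 609 units at 3 h and 186 and 433 at 24 h in AML12 cells, and 776 and 744 at 3 h and 366 and 410.2 at 24 h in the v-erbA line. RA at 24 h stood well above the untreated array in AML12 cells for both kinases, while in the v-erbA line the 24 h arrays stood close together. Aurka, the spindle pole kinase, ranged from 174 to 668 units in the same order.

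In the chromosomal passenger complex, which corrects wrong attachments, Birc5 (probe set 1424278_a_at), or survivin, read 1344 and 1308 units at 3 h and 486 and 984 at 24 h in AML12 cells, and 1484 and 1524 at 3 h and 855 and 883 at 24 h in the v-erbA line. Cdca8 (probe set 1436847_s_at), or borealin, read 566 and 529 units at 3 h and 175 and 397 at 24 h in AML12 cells, and 583 and 566 at 3 h and 299 and 299 at 24 h in the v-erbA line. The 2 v-erbA values of Cdca8 at 24 h were nearly equal, and the untreated AML12 value lay below them. Aurkb, the kinase of the complex, read 320.0 and 313 units at 3 h and 129 and 242 at 24 h in AML12 cells, and 453 and 463 at 3 h and 249 and 243 at 24 h in the v-erbA line. Aurkb and Ccnb2 were the 2 members whose RA-treated 24 h AML12 array lay below both 24 h v-erbA arrays. For Aurkb the gap to the nearer v-erbA array was small (241.6 against 242.6 units).

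In the spindle checkpoint, Mad2l1 (probe set 1422460_at), the protein that holds Cdc20 inactive, read 2016 and 2104 units at 3 h and 908 and 1529.8 at 24 h in AML12 cells, and 2675 and 2601 at 3 h and 1526 and 1684 at 24 h in the v-erbA line. Bub1b (probe set 1416961_at), or BubR1, read 453 and 460.5 units at 3 h and 232 and 397 at 24 h in AML12 cells, and 561 and 529 at 3 h and 348 and 382 at 24 h in the v-erbA line. In both genes all 24 h arrays lay below all 3 h arrays, and Mad2l1 was higher in the v-erbA line in all 4 matched pairs. Bub1, the kinase that recruits checkpoint proteins, ranged from 157 to 528 units. Ttk, or Mps1, ranged from 58.1 to 300.0, and its untreated 24 h AML12 value lay under the pooled median.

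Of the genes of anaphase, Pttg1 (probe set 1438390_s_at), or securin, read 2791 and 2908 units at 3 h and 1218 and 2194 at 24 h in AML12 cells, and 3350.4 and 3375 at 3 h and 1919 and 2268 at 24 h in the v-erbA line. Cdc20 (probe set 1439377_x_at), the activator of the anaphase-promoting complex, read 1745 and 1735 units at 3 h and 689 and 1212 at 24 h in AML12 cells, and 1752 and 1702 at 3 h and 1004 and 1050.0 at 24 h in the v-erbA line. At 3 h the 4 Cdc20 arrays were close together, with no gap between the lines, whereas Pttg1 was higher in the v-erbA line. Ube2c, the ubiquitin-conjugating enzyme of that complex, ranged from 469 to 1530.3 units, and Espl1, or separase, from 97.0 to 371.

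At the centromere, Cenpa (probe set 1450842_a_at), the histone H3 variant that marks it, read 982 and 945 units at 3 h and 319 and 685 at 24 h in AML12 cells, and 871 and 923 at 3 h and 480.2 and 517 at 24 h in the v-erbA line. Cenpf (probe set 1427161_at), a large protein of the outer kinetochore, read 599 and 649 units at 3 h and 182 and 494 at 24 h in AML12 cells, and 879 and 883 at 3 h and 431 and 494 at 24 h in the v-erbA line. The 2 genes differed in the lines at 3 h, where Cenpf was higher and Cenpa lower in the v-erbA line on both arrays. Cenpe, the kinetochore motor, ranged from 61.6 to 386 units, and its lowest value, on the untreated 24 h AML12 array, lay under the pooled median.

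Of the spindle motors and microtubule binders, Kif11 (probe set 1435306_a_at), which pushes the spindle poles apart, read 511 and 546 units at 3 h and 194 and 399 at 24 h in AML12 cells, and 715 and 744 at 3 h and 381 and 435 at 24 h in the v-erbA line. Tpx2 (probe set 1428104_at), the activator of Aurka on the spindle, read 607 and 622 units at 3 h and 217 and 527 at 24 h in AML12 cells, and 571 and 582 at 3 h and 307 and 349 at 24 h in the v-erbA line. Kif11 was higher and Tpx2 lower in the v-erbA line at 3 h, and for both the untreated AML12 array was the lowest at 24 h. The line order of Tpx2 depended on the probe set. Another read 159 and 155 units at 3 h in AML12 cells, and 217 and 197 in the v-erbA line. Kif2c, Kif4 and Nusap1 followed the same order of times. Kifc1 (probe set 1449877_s_at), a minus-end motor that focuses spindle poles, read 126 and 119 units at 3 h and 34.9 and 201 at 24 h in AML12 cells, and 114 and 111 at 3 h and 67.0 and 64.9 at 24 h in the v-erbA line. Kifc1 departed from the other members: its highest value was on the RA-treated 24 h AML12 array, and 3 of its 4 values at 24 h lay under the pooled median. Kifc5b is a close copy of the gene, so its values are uncertain. Its only probe set has the _s_at suffix, which marks probes that match several transcripts. The probe sets used for Nek2, Cdca8, Pttg1 and Prc1 have the same suffix, and those for Aurkb, Cdc20 and Kif2c have _x_at, which marks probes that can bind other sequences, so signals of these 7 genes carry a like limit.

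Of the genes of the central spindle and cytokinesis, Anln (probe set 1433543_at), or anillin, the scaffold of the contractile ring, read 1709 and 1705 units at 3 h and 591 and 1227 at 24 h in AML12 cells, and 2222 and 2112 at 3 h and 1219 and 1372 at 24 h in the v-erbA line. Prc1 (probe set 1423775_s_at), which bundles the microtubules between the separating chromosomes, read 831 and 844 units at 3 h and 306 and 702 at 24 h in AML12 cells, and 1164 and 1113 at 3 h and 612 and 661 at 24 h in the v-erbA line. Both were higher in the v-erbA line at 3 h, and at 24 h the untreated AML12 array stood apart below the other 3. Kif20a, Kif23, Racgap1 and Ect2, the motors and regulators that place the division plane, kept the same order of times.

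Of the 2 genes of the chromosomes themselves, Mki67 (probe set 1426817_at), the Ki-67 protein that coats mitotic chromosomes, read 1932 and 1847 units at 3 h and 714 and 1572 at 24 h in AML12 cells, and 1785 and 1844 at 3 h and 1059 and 1126 at 24 h in the v-erbA line. Top2a (probe set 1454694_a_at), the topoisomerase that untangles sister chromatids, read 1612 and 1669 units at 3 h and 654 and 1547 at 24 h in AML12 cells, and 2051 and 2002 at 3 h and 1197 and 1371 at 24 h in the v-erbA line. With RA, the 24 h AML12 value of Top2a lay only slightly under the 3 h value, and for both genes that array was the highest of the 4 at 24 h.

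**Figure D2:**
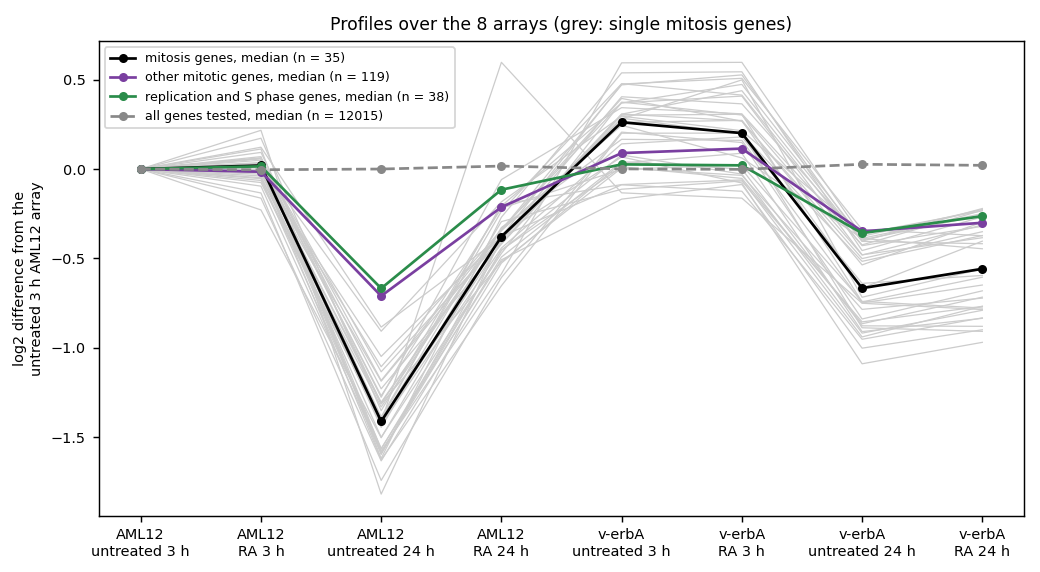
Log2 difference of each array from the untreated 3 h AML12 array, on log2(signal + 19.9), for the 35 mitosis genes (grey lines, with their median in black) and the medians of 119 other mitotic genes (purple), 38 replication and S phase genes (green) and 12015 genes tested (dashed grey). The black line reaches its lowest point, a median of 37.6% of the reference array, on the untreated 24 h AML12 array, while the dashed line stays near 0.

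The mitosis genes fell from 3 h to 24 h. In the additive fit of line, RA and time over all 8 arrays (4 residual degrees of freedom), 34 of 35 members were lower at 24 h and 0 were higher, against 15.2% of all genes tested called lower. The median difference of the members was -0.84 on the log2(signal + 19.9) scale, and that of all genes tested was 0.031. The largest falls were those of Cenpe (-1.12 ± 0.19, SE, 4 arrays against 4) and Aurka (-1.12 ± 0.15). Nek2 followed with -1.02 ± 0.18, Ccnb2 with -0.99 ± 0.14, Kif20a with -0.97 ± 0.17 and Ube2c with -0.97 ± 0.17. The smallest called fall was that of Bub1b, -0.55 ± 0.11, and the adjusted p of the 34 called members was at most 0.0141 (limma). Kifc1 was the member not called, with -0.50 ± 0.31 and an adjusted p of 0.241 (limma). In 34 of 35 members, all but Kifc1, all 4 arrays of 24 h lay below all 4 of 3 h, which held for 9.07% of the genes tested.

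The fall did not rest on the untreated 24 h AML12 array, although its size did in part. Fitted without that array, 34 members were again lower and 0 higher, against 13.6% of all genes tested called lower, and the median difference was -0.66. Pair by pair, the median ratio of 24 h to 3 h was 0.358 in untreated AML12 cells, 0.754 in AML12 cells with RA, 0.538 in the untreated v-erbA line and 0.585 in the v-erbA line with RA. A fall of at least 2-fold was seen in 33 members in untreated AML12 cells (background 3.94%), 0 in AML12 cells with RA (3.16%), 7 in the untreated v-erbA line (3.31%) and 2 in the v-erbA line with RA (3.14%). The 33 include Kifc1, Cenpe and Ttk, whose 24 h value lay under the pooled median. Set against that level, Cenpe was at least 3.64-fold lower, Ttk at least 2.94-fold and Kifc1 at least 1.72-fold. The single pairs have no replicate and no test.

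Some markers of other liver cells were also lower at 24 h in the additive fit: Csf1r (-0.81 ± 0.12) and Adgre1 (-0.67 ± 0.11) of the macrophage list, Eng (-1.16 ± 0.11) of the endothelial list and Col1a1 (-2.34 ± 0.13) of the fibroblast and stellate list. Cd14, of the macrophage list, was higher (0.38 ± 0.038). Eng was the only one called of 2 endothelial genes tested (median -0.41), and Col1a1 of 4 fibroblast and stellate genes (median -0.14). Of the 4 biliary markers Sox9 was higher (0.63 ± 0.067) and Krt19 lower (-0.56 ± 0.070), with a median of 0.033. Of the 13 hepatocyte markers 5 were higher at 24 h (2 without the untreated 24 h AML12 array) and 1 lower, with a median of 0.063. The part of these changes in the time difference of the mitosis genes was not tested.

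The role groups differed little in these values. The median time difference over all arrays was -1.02 in the 3 mitotic kinases, -0.95 in the 3 centromere and kinetochore genes, -0.86 in the 4 entry genes and -0.85 in the 3 chromosomal passenger genes. It was -0.84 in the 6 genes of cytokinesis, -0.83 in the 4 checkpoint genes, -0.82 in the 4 anaphase genes, -0.73 in the 6 spindle motors and microtubule binders and -0.72 in Mki67 and Top2a. All members of every group were called lower except Kifc1 among the spindle motors.

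The untreated 24 h AML12 array was set against the additive fit of the other 7 arrays, as a description. All 35 members lay below that fit, by a median of -0.81 on the log2 scale (1.76-fold), whereas the median of all genes tested lay at -0.032, with their 5th and 95th percentiles at -0.36 and 0.40. Of the 100 tested genes furthest below the fit, 23 were mitosis genes. The departures ran from -0.34 for Kif2c, a microtubule depolymerase of the centromere, to -1.42 for Kifc1. Other Kif2c probe sets lay at -0.66, -0.41 and -0.21. Cenpe, at -1.02, and Kifc1 were the 2 members at least 2-fold below the fit, which held for 0.175% of the genes tested. Mki67 read 714 units where the fit gave 1321, Top2a 654 where it gave 1221, and Cdk1 1040.1 where it gave 1424. The deviations of different arrays are not independent, since each array enters the fits of the others: on the RA-treated 24 h AML12 array all 35 members lay above the fit, by a median of 0.72, and on the other 6 arrays the medians lay between -0.33 and 0.31. Without the RA-treated 24 h AML12 array, the median departure of the untreated one was -0.57.

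**Figure D3:**
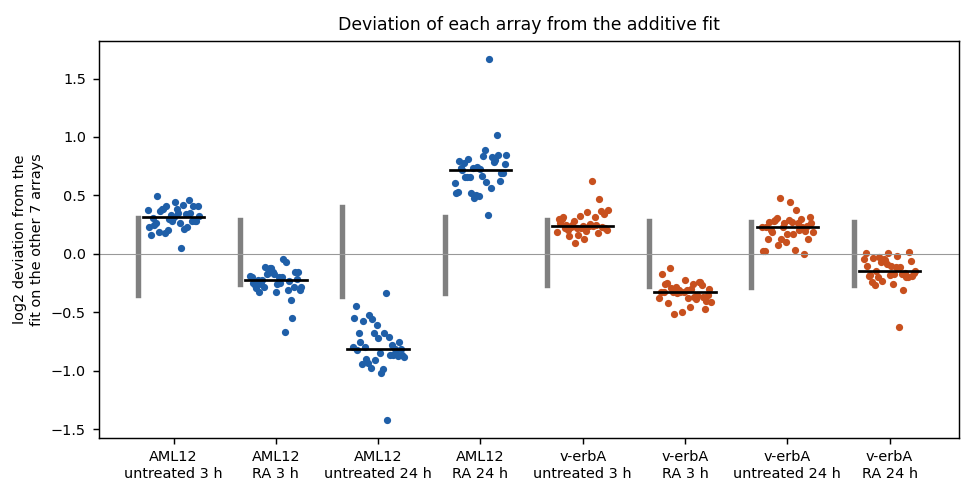
Log2 deviation of each array (columns) from the additive fit on the other 7 arrays, for the 35 mitosis genes (points, blue AML12 and orange v-erbA line), with their median as a black line and the 5th to 95th percentile of all 12015 genes tested as a grey bar at the left of each column. On the untreated 24 h AML12 array the median is -0.81, and on the RA-treated 24 h AML12 array it is 0.72.

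Hepatocyte markers were mixed on that array. The summed signal of the 13 measured hepatocyte markers ran from 38546 units (untreated v-erbA line, 3 h) to 56293 units, its highest, on the untreated 24 h AML12 array, where albumin gave 11053 of them. On that array 9 of the 13 lay above the additive fit of the other arrays, 2 of these by at least 2-fold, and 4 below it, 1 by at least 2-fold, with a median of 0.16, while 57.2% of all genes tested lay below their fit. Their median ratio of RA to untreated at 24 h was 0.785 in AML12 cells and 0.911 in the v-erbA line. Foxm1, a factor that switches on mitosis genes, read 229 and 189.9 units at 3 h and 79.5 and 153 at 24 h in AML12 cells, and 211 and 263 at 3 h and 146 and 156 at 24 h in the v-erbA line. Like the members it was lowest on the untreated 24 h AML12 array, and its time difference was -0.69 ± 0.14 (adjusted p = 0.00563, limma). The part of these other changes in the level of the mitosis genes was not tested. Markers of other liver cells were mostly dim: 3 of 6 macrophage, 2 of 6 endothelial and 4 of 8 fibroblast and stellate markers passed the filter, and Ptprc, Cd68, Lyz2, Pecam1, Cdh5, Tek, Tie1, Col3a1, Pdgfra, Pdgfrb and Lrat did not. On the untreated 24 h AML12 array the summed signal was 4548 units for the macrophage list (range over arrays 2151 to 5468), 296 for the endothelial list (253 to 338), 437 for the fibroblast and stellate list (346 to 619) and 5065 for the 4 measured biliary markers of 5 (3240.0 to 5953).

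The mitosis genes were higher with RA in AML12 cells at 24 h and close to their untreated level in the other 3 matched pairs of arrays. In AML12 cells at 24 h the median ratio of RA to untreated was 2.16, all 35 members were higher, and 26 were at least 2-fold higher, against 0.948% of the genes with a signal. The ratio was 2.72 for Cenpf, 2.42 for Tpx2, 2.37 for Top2a, 2.32 for Nek2 and 2.20 for Mki67, and it was lowest for Kif2c (1.48) and Cdk1 (1.60). For Cenpf, Tpx2 and Kif2c it depended on the probe set. Untreated and with RA, other Cenpf probe sets read 160 and 141, and 63.0 and 43.8 units. Those of Tpx2 read 108 and 117, 93.1 and 96.9, and 83.8 and 62.1. Other probe sets that passed the filter were higher with RA for Nek2 (79.5 and 184) and Top2a (147 and 190). Kifc1, Cenpe and Ttk were dim on the untreated array, and were at least 2.74-fold, 2.72-fold and 2.17-fold higher with RA. By role, the median ratio in this pair ran from 1.91 in the entry genes to 2.72 in the centromere and kinetochore genes. In the v-erbA line at 24 h the median ratio was 1.10, with 28 members higher and 7 lower, from 0.956 (Kif4) to 1.20 (Ccna2), and 0 were 2-fold higher (background 0.174%). At 3 h the median ratio was 1.01 in AML12 cells (19 higher and 16 lower, 0 at least 2-fold higher, background 0.259%) and 0.996 in the v-erbA line (17 higher and 18 lower, 0 at least 2-fold, background 0.0621%).

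**Figure D4:**
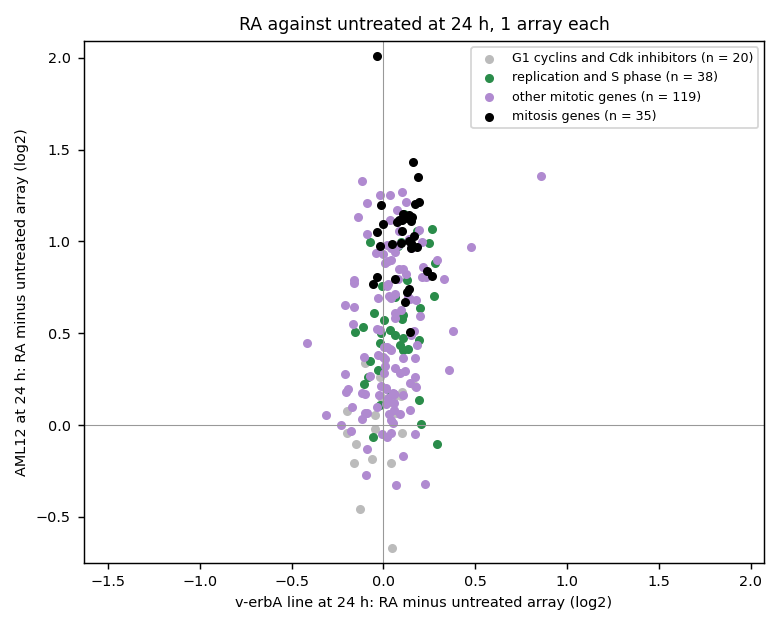
RA minus untreated at 24 h on log2(signal + 19.9), in the v-erbA line (horizontal) and in AML12 cells (vertical), 1 point per gene, for 35 mitosis genes (black), 119 other mitotic genes (purple), 38 replication and S phase genes (green) and 20 G1 cyclins and Cdk inhibitors (grey). The black points lie high above the horizontal line and close to the vertical line, with medians of 1.05 in AML12 cells and 0.13 in the v-erbA line, and each value is the difference of 2 arrays with no replicate.

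No RA effect on a mitosis gene passed the test in the additive fit. There 0 of 35 members were called (background 0.816% higher and 0.358% lower), although all 35 differences were above 0, with a median of 0.28. The median of all genes tested was 0.0025. Of the members 5 had an unadjusted p under 0.05, and the smallest adjusted p was 0.390 (limma). Without the untreated 24 h AML12 array the median was 0.084 and the smallest adjusted p 0.431, with 0 members called (background 0.691% higher and 0.258% lower), and without the RA-treated 24 h AML12 array the median was 0.10, so the size of this difference rested on those 2 arrays. For AML12 cells alone, in a fit with a line by RA term (3 residual degrees of freedom), 0 members were called (background 0.25% higher and 0.0583% lower), 30 had an unadjusted p under 0.05 and the median was 0.50, against 0.15 without the untreated 24 h AML12 array, where again 0 were called (background 0.0499% higher). Without the untreated 3 h AML12 array, however, members were called higher in that fit, which then held 1 untreated AML12 array. With all 2-way interactions in 1 fit over the 8 arrays (1 residual degree of freedom), 13 members were called higher for RA. The share of all genes called in those fits is not given here, so neither result can be read as one about the members. For the v-erbA line 0 members were called (background 0% in either direction), 0 had an unadjusted p under 0.05 and the median was 0.048.

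The differences between RA effects did not pass the test either. The RA effect in the v-erbA line minus that in AML12 cells had a median of -0.46, with 0 members called (background 0%), 0 with an unadjusted p under 0.05 and a median of -0.11 without the untreated 24 h AML12 array. The RA effect at 24 h minus that at 3 h had a median of 0.57, with 0 members called (background 0.0166% higher) and 20 with an unadjusted p under 0.05. Its smallest adjusted p was 0.584 (limma), and its median was 0.25 without the untreated 24 h AML12 array. Leaving out the untreated or the RA-treated 24 h v-erbA array gave calls of higher signal among the members in that fit. The treatment left out then had 1 array at 24 h, and the share of all genes called is not given here. A response confined to 1 line at 1 time is a difference of 3 factors, for which 1 array per combination leaves no error, so the AML12 pair at 24 h was not tested as such.

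In the additive fit over all 8 arrays, with the deposited scaling, the share of mitosis genes called higher in the v-erbA line was not above that of all genes. In this fit 7 members were higher in the v-erbA line and 0 lower, against 26.5% of all genes tested called higher and 26.9% called lower. The median difference was 0.25, and that of all genes tested was 0.012. Ccnb2 differed by 0.69 ± 0.14 (SE, 4 arrays against 4), Cenpf by 0.53 ± 0.19, Kif11 by 0.48 ± 0.13, Aurkb by 0.47 ± 0.13, Anln by 0.46 ± 0.16 and Mad2l1 by 0.40 ± 0.11. Each of these 6 was higher in the v-erbA line in 4 of 4 matched pairs. With RA at 24 h, however, the lines were nearly equal for Cenpf (494.3 against 493.7 units) and Aurkb (242.6 against 241.6). Espl1, with 0.41 ± 0.15, was higher in 3 of 4. The line difference of Cenpf depended on the probe set: others stood at -0.041, not called, and at 0.44, called higher. The adjusted p of the 7 lay between 0.00325 and 0.0441 (limma). In 0 members did all 4 v-erbA arrays lie above all 4 AML12 arrays, which held for 18.7% of the genes tested. Hepatocyte markers differed between the lines too: 8 of the 13 were lower in the v-erbA line and 1 was higher, with a median of -1.05, led by Apoa1 (-2.98 ± 0.31), Apoh (-1.95 ± 0.17) and Fgg (-1.82 ± 0.21). Their part in the line difference of the mitosis genes was not tested.

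The line difference of the members changed with the time and with the untreated 24 h AML12 array. On the probe sets used, both v-erbA arrays of 3 h lay above both AML12 arrays of 3 h for 25 members (background 36%). Both AML12 arrays lay above both v-erbA arrays there for 5, Cdk1, Cenpa, Kifc1, Tpx2 and Mki67 (37.4%). The median ratio of the v-erbA line to AML12 was 1.20 untreated and 1.16 with RA at 3 h. At 24 h it was 1.72 untreated, with all 35 members higher and 7 at least 2-fold higher (Ccnb2, Cenpe, Cenpf, Ttk, Prc1, Anln and Ect2, background 2.52%). With RA at 24 h it was 0.897, with 9 members higher and 26 lower, and only Kifc1 at least 2-fold lower (3.12%). The RA-treated 24 h AML12 array lay above both 24 h v-erbA arrays for 26 members (background 42.2%) and below both for 2 (45.4%). The median untreated ratio at 24 h, the RA ratio in AML12 cells at 24 h and the time ratio in untreated AML12 cells share the untreated 24 h AML12 array.

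**Figure D5:**
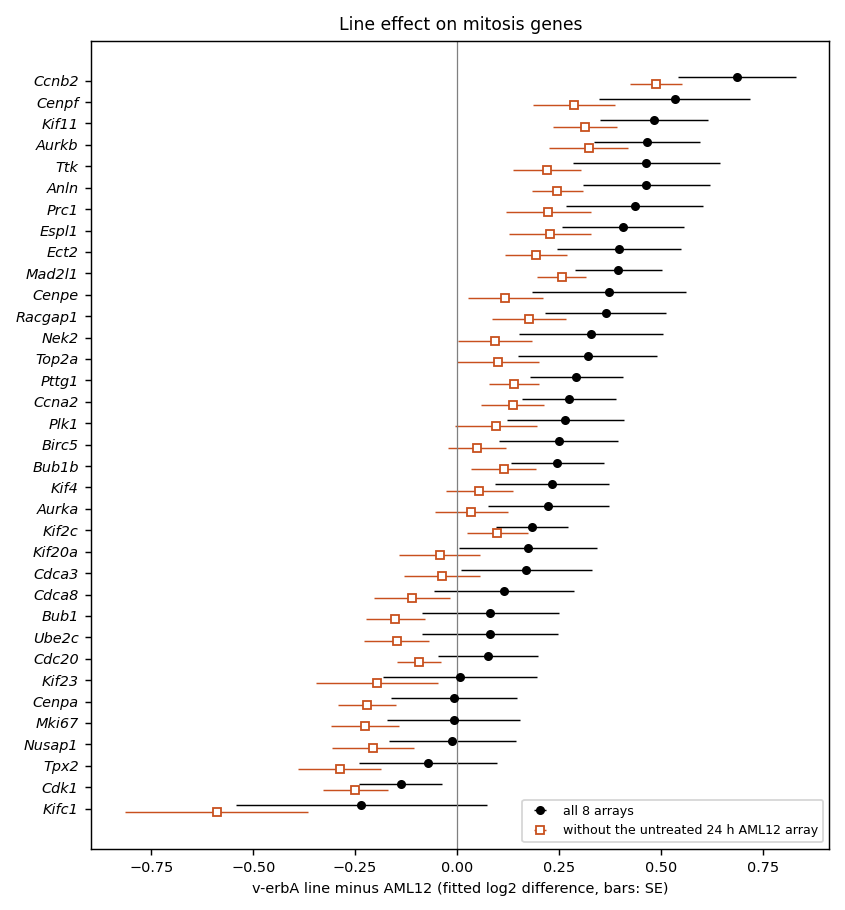
Fitted log2 difference of the v-erbA line minus AML12 for each of the 35 mitosis genes with its SE, from all 8 arrays (black circles) and without the untreated 24 h AML12 array (open orange squares). Every square lies left of its circle, and the median moves from 0.25 to 0.095.

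Fitted without the untreated 24 h AML12 array, 6 members were higher in the v-erbA line, the same ones but for Espl1, and 4 were lower (background 25.1% and 27.2%). The 4 lower members were Cdk1 (-0.25 ± 0.08), Cenpa (-0.22 ± 0.07), Mki67 (-0.23 ± 0.08) and Tpx2 (-0.29 ± 0.10), with adjusted p between 0.0264 and 0.049997 (limma). For Tpx2 the direction depended on the probe set. Over all 8 arrays the one used stood at -0.072, and another was called higher in the v-erbA line (0.42, adjusted p = 0.00077, limma). The remaining Tpx2 probe sets stood at -0.068 and 0.081 and were not called. The count of 7 moved with single arrays. It was 24 without the RA-treated 24 h AML12 array, where the median was 0.40, and 12 without the RA-treated 3 h v-erbA array. It was 4 without the RA-treated 24 h v-erbA array, 3 without the RA-treated 3 h AML12 array, 3 without the untreated 24 h v-erbA array and 2 without the untreated 3 h v-erbA array. The members called in these 6 fits were all higher in the v-erbA line. Over the 8 arrays the count was 12 after quantile normalization, where 3497 of the 12015 genes tested were called higher and 3081 lower. It was 4 without the mean-variance trend and 20 with all 2-way interactions, 1 of them lower. Where no share of all genes is given beside a count, the count cannot be read as a result about the members.

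The fall with time did not differ between the lines past the threshold when all arrays were used. The difference of the time effects, v-erbA line minus AML12, had a median of 0.065, with 0 members called (background 0.0333% higher and 0.0666% lower). The lowest adjusted p was 0.871 (limma), and the unadjusted p was under 0.05 in 0 members. Without the untreated 24 h AML12 array all 35 differences were below 0, with a median of -0.41, and 6 members were called, Cdca3, Kif23, Kifc1, Mki67, Prc1 and Top2a (background 0.441% lower). Without the RA-treated 24 h AML12 array members were called in the opposite direction, and the share of all genes called there is not given here. Each of these fits held 1 AML12 array of 24 h. Among the members called, the sign of this difference therefore turned on which of the 2 AML12 arrays of 24 h was kept.

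Most other genes of the kinetochore and the spindle were lower at 24 h as well. Of 31 other kinetochore genes tested 27 were lower at 24 h and 0 higher, with a median of -0.66, led by Ska1, Sgo1 and Nuf2 (-0.97 ± 0.17, -0.96 ± 0.18 and -0.92 ± 0.18). Of 25 other spindle, centrosome and cytokinesis genes 20 were lower and 0 higher (median -0.67), led by Tacc3 (-1.02 ± 0.20), a microtubule binder of the spindle. Of 27 genes of transcription and mitotic entry 16 were lower and 1 higher (median -0.40), led by Pkmyt1 (-1.55 ± 0.08), the kinase that inhibits Cdk1, and Cdc25c (-0.98 ± 0.13), the phosphatase that activates it. Of 18 condensin and cohesin genes 11 were lower and 2 higher (median -0.25), led by Ncapg (-0.996 ± 0.138). Of 18 genes of the anaphase-promoting complex and its control, which also acts in G1, 5 were lower, 1 was higher and 12 were not called (median -0.043). Its inhibitor Fbxo5 had a difference of -0.64 ± 0.11 and its subunit Anapc2 a difference of 0.63 ± 0.045.

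The median ratio of RA to untreated at 24 h in AML12 cells was 1.81 for the kinetochore list, 1.75 for the spindle list, 1.35 for transcription and entry, 1.27 for condensin and cohesin and 1.12 for the anaphase-promoting complex, and in the v-erbA line it lay between 1.01 and 1.04 in all 5. Of these 119 genes only Cenpm, a protein of the inner kinetochore, was called for RA over all arrays (0.82 ± 0.15, adjusted p = 0.0378, limma), and it was not called without the untreated 24 h AML12 array. Mybl2, the B-Myb factor, had a time difference of -0.40 ± 0.10 (adjusted p = 0.0132, limma).

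Genes of the earlier cell cycle moved less. Of 38 replication and S phase genes 27 were lower at 24 h and 1 higher (median -0.35), with Mcm5, of the replicative helicase, at -0.74 ± 0.14 and Ccne1, cyclin E1, at 0.96 ± 0.07. Pcna, the sliding clamp of DNA polymerase, changed by -0.26 ± 0.054 (adjusted p = 0.00575, limma). Their median ratio of RA to untreated at 24 h was 1.47 in AML12 cells and 1.06 in the v-erbA line. Of 20 G1 cyclins and Cdk inhibitors 2 were lower and 4 higher (median 0.035), against 15.2% lower and 19.5% higher of all genes tested. Their ratios were 1.05 and 0.99. Cdkn1a, the p21 inhibitor, had a time difference of -0.13 ± 0.053 that was not called, and a line difference of -0.41 ± 0.053, while Ccnd1, cyclin D1, had a line difference of -0.31 ± 0.07. These differences between lists are set side by side and were not tested.

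The other probe sets of the members mostly moved as the ones used did. Of 40, 29 from 19 genes passed the filter, and 26 of these had a time difference below 0, 21 of them past the threshold and 0 higher past it, with a median of -0.77 against -0.84 for the probe sets used. On the untreated 24 h AML12 array 24 of the 29 lay below the additive fit, with a median of -0.66. The line difference was above 0 in 20 and the RA difference in 21. Another Bub1b probe set had a time difference of -1.08, against -0.55 for the one used, so the small fall given for Bub1b depends on the probe set. As exceptions, 2 probe sets of Cdca3, 1 of Cenpf, 2 of Tpx2 and 1 of Kif2c had time differences between -0.04 and 0.17. Their mean signals ran from 62.4 to 140 units, and those of Cenpf and Kif2c lay above the pooled median on all 8 arrays. For Cdca3 these were all its other probe sets.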

How the data were processed

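Total RNA was labelled following the Affymetrix manual, per the labels' protocols. The deposited values are linear signal intensities. How the authors summarised probes and scaled arrays is not given in the sources used here, so their scaling was left as it is. Of 45037 probe sets 1 had missing values and was left out. Platform annotation named 1 gene for 34944 probe sets, several for 932 and none for 9160, and the last 2 kinds were not used. For each gene the probe set with the highest mean was taken.

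Values were log2(signal + 19.9), with the 20th percentile of all values as offset, so changes of dim genes are understated. Models were fitted with limma 3.58.1 (R 4.3.3), with an intensity-dependent prior variance, and were tested on simulated data. Interaction terms were added 1 at a time. Each array's deviation is its distance from the additive fit of the other 7. A fold against a dim array is given as a bound at the pooled median. For single pairs, a 2-fold change was counted if either array was above that median, and these have no test. Figures used matplotlib 3.10.9 in Python 3.11.15. The number of arrays limits the precision. Whether the samples came from separate cultures is not stated.

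The members and the other gene lists were chosen with earlier results of these data known. Signals on all arrays are given for the 2 brightest members of each role, with Ccnb2, Aurkb and Kifc1 added after their values were seen. For line and time up to 6 members with the largest called changes are given, from other lists up to 3 genes, and always Foxm1, Mybl2, Cdkn1a, Ccnd1, Pcna and Alb. Alternatives were the offset, array scaling, quantile normalization, the dim filter, all probe sets averaged, the trend, all 2-way interactions together and leaving out each array.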

Additional observations from a re-analysis of the deposited data

How the results depend on the processing

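The fall with time was called in 33 to 35 members under every setting and without any 1 array. Of the 12015 genes tested, 1823 were called lower in the main fit and 1630 without the untreated 24 h AML12 array. With arrays centred on their medians 2250 were called lower, and after quantile normalization 2079. For the single members, 270 of 272 fits without 1 array and 271 of 272 fits under another setting kept the call, and the 3 that lost it were all of Top2a. The median time difference ranged from -1.005 to -0.66 when arrays were left out in turn. For the 7 members called higher in the v-erbA line, 38 of 56 fits without 1 array and 50 of 56 under another setting kept the call. The count for the v-erbA line was 20 with all 2-way interactions (19 higher and 1 lower, with 1 residual degree of freedom), 4 without the mean-variance trend and 12 after quantile normalization, and ranged from 2 to 24 without 1 array, with medians from 0.095 to 0.40. The causes were not tested. The count for RA was 13, all higher, with all 2-way interactions, and 0 without any 1 array, with medians from 0.084 to 0.37. The count ranged from 0 to 22 for RA in AML12 cells, from 0 to 12 for the difference of RA effects between times, and from 0 to 23 for the difference of time effects between lines. The share of all genes called is not given beside these counts for the v-erbA line, RA and the differences of effects. Such counts therefore cannot be read as results about the members. Some of the fits left 1 array for a line and treatment, a line and time or a treatment and time. The median deviation of the untreated 24 h AML12 array ranged from -0.92 to -0.57. The trend, the dim filter and the joint interactions give no separate value for that deviation. Centring the arrays on their medians moved the split of all genes called for time from 2341 higher and 1823 lower to 1835 and 2250, and for RA from 98 and 43 to 138 and 31. Each factor was compared over 4 matched pairs of arrays, since the additive fit holds the other 2 factors as terms, and the labels give no replicate numbers. With 1 array per combination, a departure of 1 array and a response of that combination cannot be told apart.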
